A study of Mus musculus with 26 samples.

Results

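The genes described here are the 39 that carry pyruvate and fatty acids into oxidative metabolism, followed across regenerating mouse muscle and differentiating C2C12 cells. They were taken by gene symbol from the deposited expression tables and are 39 of the 53465 rows of the regeneration table and 39 of the 55487 rows of the knockdown table. Of these genes, 17 encode the pyruvate dehydrogenase complex (4 genes) and the enzymes of the TCA cycle (13 genes), and 18 encode the carnitine shuttle, the β-oxidation enzymes and the electron transfer flavoprotein. The other 4 are Cd36, Fabp3 and Lpl, which serve fatty acid uptake and transport, and the coactivator Ppargc1a. The comparison asked whether the pathways moved together during muscle repair, during myoblast differentiation and after Mettl3 knockdown.

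The regeneration table held tibialis anterior (TA) muscle of C57BL/6J mice, described in the study's methods as 6-week-old males, in which cardiotoxin (CTX), a snake venom toxin that destroys myofibers, had been injected. Muscles were labelled day 0, 1, 3, 5 and 10, with 2 libraries per day. Saline served as the control injection, and neither labels nor methods say whether the muscles labelled day 0 had received it or no injection. The knockdown table held C2C12 cells, an established line of mouse myoblasts. Knockdown cells had been infected with lentivirus that carried dCas9 fused to the KRAB repressor and guide RNAs against the Mettl3 promoter. Neither labels nor methods say what the control cells had received. Both kinds of cells were sampled in growth medium (GM, labelled D0) and after 3 days in differentiation medium with low horse serum (DM3, labelled D3). There were 2 libraries in each of 4 groups. Nothing in the labels said that libraries of a group came from separate animals or cultures. The p-values below thus measure the spread between these libraries, which may be technical. The 2 libraries of day 3 differed in sex-linked genes, as given below, so for that day the spread was not technical alone. All levels are FPKM as deposited, reads scaled to transcript length and by a factor for each library. This factor did not follow the read count alone. On a 1 kb transcript, 1 read was 0.0803 FPKM in day 0 replicate 1 (16780000 reads) and 0.0494 FPKM in day 3 replicate 2 (14290000 reads). Every difference is on the log2(FPKM + 0.1) scale with its standard error (SE), and differences after scaling to total reads were not computed. A gene was called where limma's moderated test over all genes of the table gave a Benjamini-Hochberg adjusted p of at most 0.05.

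Acetyl-CoA is the point where both pathways meet. The pyruvate dehydrogenase complex makes it from pyruvate in the mitochondrial matrix, whereas long-chain fatty acids must first be coupled to carnitine, carried across the inner membrane and shortened in a repeated cycle of dehydrogenation, hydration, oxidation and thiolysis. Citrate synthase then feeds acetyl-CoA into the TCA cycle, and the electrons of both pathways reach the respiratory chain. Adult myofibers are dense in mitochondria and use both fuels, whereas proliferating myoblasts depend more on glycolysis.

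Several libraries stood apart before any member was examined. In the regeneration table Xist was at or above 5.77 FPKM in 5 libraries, namely both of day 0, both of day 10 and replicate 2 of day 3, while 4 Y-linked genes were expressed in the other 5, although the methods name male mice. All libraries of days 1 and 5 thus differed from those of day 0 in this sex-linked split, and day 3, the only day with a library of each kind, allowed a term for it to be fitted. In the knockdown table, the share of reads on ribosomal RNA loci split by replicate number. It was 0.412% to 0.536% in replicate 1 of every group and 8.22% to 11.3% in replicate 2, except for replicate 2 of the control in GM with 28.7%. Mettl3 was 4.68 to 5.65 FPKM in the 4 control libraries and 0.0805 to 0.331 FPKM in the 4 knockdown libraries. Read depth on genes was 14170000 to 18820000 per library in the first table and 14230000 to 29560000 in the second. In the second it was 25160000 or more in replicate 1 of every group and 18890000 or less in replicate 2.

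Muscle contractile markers and macrophage markers moved with the days, and their part in the results below was not tested. Summed FPKM of 12 mature myofiber markers was 92500 and 79700 on day 0, 25830 and 20160 on day 3, 62700 and 63930 on day 5, then 107000 and 81000 on day 10. Summed FPKM of 10 macrophage markers, which was 52.5 and 106 on day 0, reached 1721 and 1679 on day 3 and was still 501 and 580 on day 5. In whole muscle, fewer myofibers and less RNA of a gene per myofiber cannot be told apart.

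On day 3, 38 of the 39 members were lower than on day 0 and 1 was higher. Over all 16753 genes tested, 24.3% were called lower and 24.5% higher in that comparison. All 17 pyruvate dehydrogenase and TCA cycle genes fell, by 1.12 to 2.16, with a median of -1.85, and 17 of 18 fatty acid oxidation genes fell, with a median of -1.63, whereas the median over all genes was 0.01. The exception was Cpt1a, which rose. Between 37 and 39 members were called when any library was left out, and 38 without day 3 replicate 1, which leaves libraries with Xist on both sides. For 37 of the 39 members the day 3 mean was the lowest of the 5 days, the other two being Idh2, lowest on day 1, and Cpt1a. The median of the 20 nuclear oxidative phosphorylation genes was -1.73 on day 3, with all 20 called lower.

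**Figure D1:**
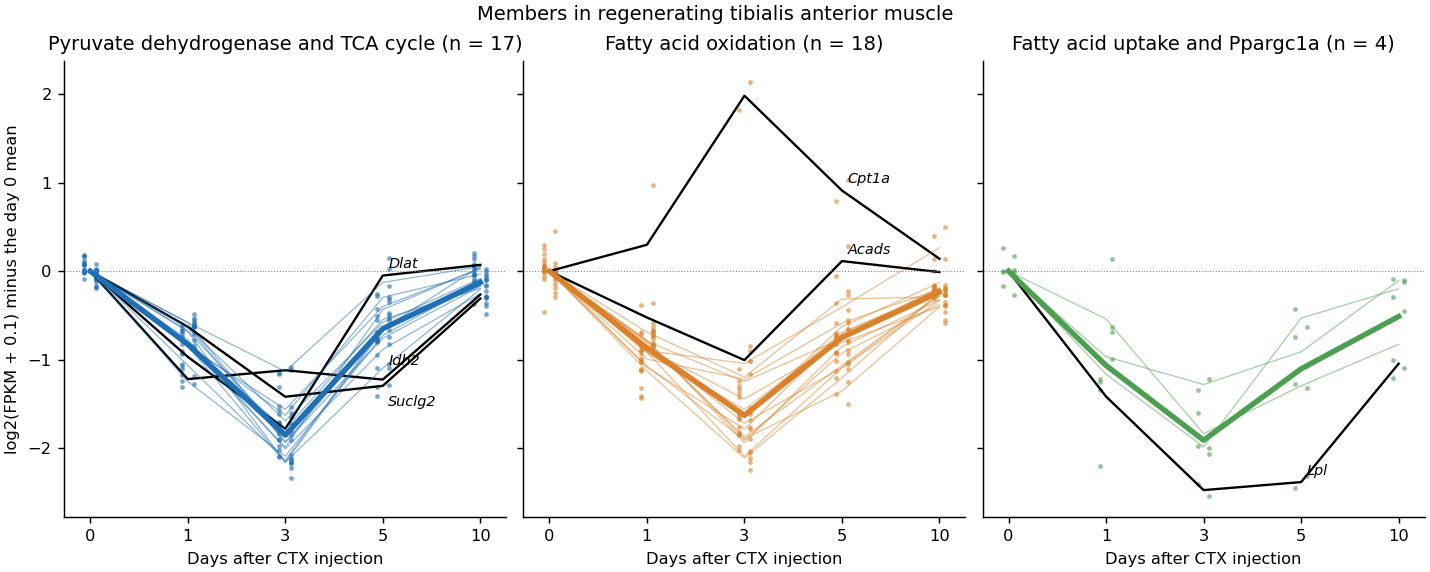
Level of each member in regenerating TA muscle, as log2(FPKM + 0.1) minus the mean of the day 0 libraries, against days after CTX injection, with the 3 gene groups in separate panels. Points are single libraries, thin lines join the means of 2 libraries, thick lines are group medians, and black lines mark named genes. Nearly all members reach their minimum on day 3, Cpt1a peaks there, and Idh2, Suclg2 and Lpl stay low on day 5.

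Levels were already lower on day 1. Of the 39 members, 27 were called lower than on day 0 and none higher, against 2.47% of all genes called lower, and the median over the members was -0.84. The range reached from -1.42 for Lpl to 0.30 for Cpt1a, and 38 of 39 members had a lower mean than on day 0. These calls were lost together with those of the whole table. Of the members, 0 were left without day 0 replicate 1, 1 without day 0 replicate 2, 0 without day 1 replicate 1, 3 without replicate 1 or without replicate 2 of day 3 and 4 without replicate 1 or without replicate 2 of day 5. In these settings 9, 113, 13, 101 and 118, and 138 and 140 of all genes were called, against 1005 with every library. With a term for the Xist-expressing libraries, 0 of all 16753 genes were called, members included, and 1811 genes had an unadjusted p under 0.05. On day 1 itself 36 of 39 members were higher in replicate 2 than in replicate 1, by a median of 0.27. From day 1 to day 3, 30 members fell (16.6% of all genes) and Cpt1a rose by 1.68 (14.5% of all genes were called higher). The count of 31 was 16 without day 3 replicate 2, where calls over all genes went from 5213 to 1362, and Cpt1a was not called without day 1 replicate 1 (1.01) or without any 1 library of days 3 and 5.

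The gate into the cycle is the pyruvate dehydrogenase complex, in which Pdha1 and Pdhb encode the E1 subunits that decarboxylate pyruvate, Dlat encodes the acetyltransferase core and Dld the lipoamide dehydrogenase. Pdha1 was 282 and 256 FPKM on day 0, 72.3 and 61.8 on day 3, 139 and 152 on day 5, then 248 and 204 on day 10. Dlat was 59.7 and 67.1 FPKM on day 0, 17.7 and 19.0 on day 3, then 53.1 and 70.4 on day 5. The Dlat libraries of day 5 thus spanned those of day 0, whereas Pdha1 remained below them. All 4 genes fell on day 3, by 1.56 to 2.01, and of the 4, Pdha1 (-0.88, SE 0.17, adjusted p = 0.0159 by limma) and Pdhb (-0.40, SE 0.12, adjusted p = 0.0456) were still called lower on day 5. Of the exonic bases of Pdha1, 16.2% are shared with Map3k15 on the opposite strand, and the strand setting of the counting is not given in the sources used here.

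Cs encodes citrate synthase, which joins acetyl-CoA to oxaloacetate. It was 205 and 209 FPKM on day 0, 111 and 120 on day 1, 55.3 and 49.2 on day 3, 141 and 166 on day 5, then 227 and 199 on day 10. No library of days 1, 3 or 5 reached those of day 0, and day 10 lay on either side of them. The fall to day 3 was 1.99 (SE 0.14, adjusted p = 0.000263), and the rise from day 3 to day 5 was 1.55 (adjusted p = 0.00513).

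The members of the cycle with the largest falls on day 3 were Ogdh, the E1 subunit of 2-oxoglutarate dehydrogenase, and Idh3b, a regulatory subunit of the NAD-dependent isocitrate dehydrogenase. Ogdh went from 211 and 208 FPKM on day 0 to 49.1 and 44.6 on day 3, a change of -2.16 (SE 0.19, adjusted p = 0.000324). Idh3b went from 175 and 137 to 39.3 and 30.5, a change of -2.16 (SE 0.19, adjusted p = 0.000329). Idh3a and Idh3g, which encode the catalytic and the other regulatory subunit, fell by 2.14 and 1.93. The 3 subunits thus declined by similar amounts.

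Idh2, the NADP-dependent mitochondrial isocitrate dehydrogenase (ENSMUSG00000030541, chr7:80094846-80115392), followed another course. It was 115 and 104 FPKM on day 0, 48.6 and 45.4 on day 1, 49.1 and 51.7 on day 3, 41.3 and 53.1 on day 5, then 84.9 and 97.9 on day 10. The day 5 libraries enclosed those of days 1 and 3, and all were below day 0. From day 3 to day 5 it changed by -0.11, with a 95% confidence interval from -0.47 to 0.26. Relative to Cs the difference was visible within each library, as the ratio of Cs to Idh2 was 1.78 and 2.01 on day 0, 1.13 and 0.951 on day 3, then 3.42 and 3.13 on day 5. Whether Idh2 differed from the other genes of the cycle was not tested.

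Succinyl-CoA ligase pairs the shared α subunit, Suclg1, with either Sucla2, which makes ATP, or Suclg2, which makes GTP. Sucla2 (ENSMUSG00000022110, chr14:73525319-73596142) was 126 and 112 FPKM on day 0, 36.5 and 26.6 on day 3, then 73.6 and 78.1 on day 5. Suclg2 (ENSMUSG00000061838, chr6:95473009-95718800) was 19.3 and 14.8 FPKM on day 0, 6.78 and 5.77 on day 3, then 6.77 and 6.89 on day 5, so its day 5 libraries were at the level of day 3. Sucla2 rose by 1.28 (SE 0.19, adjusted p = 0.00848) from day 3 to day 5, and Suclg2 changed by 0.12 (SE 0.18, 95% interval -0.29 to 0.53, adjusted p = 0.696). The ratio of Sucla2 to Suclg2, both per kilobase, was 6.55 and 7.56 on day 0, 5.38 and 4.61 on day 3, then 10.9 and 11.3 on day 5. Suclg1 went from 70.0 and 62.0 FPKM to 19.95 and 18.2 on day 3, then 39.2 and 51.9 on day 5.

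The promoters of both β subunits are shown because their levels parted after day 3. They are RefSeq windows of 300 bases on GRCm38.p6, from 250 bases before to 50 after the annotated start. That of Sucla2 is on the plus strand at chr14:73552536-73552835, inside the gene model given above and not at its outer start. That of Suclg2 is on the minus strand at chr6:95718797-95719096. Where a gene had several windows, the window with the longest list of motif matches was shown. Capitals mark a match to GCGCANGCG, the core recognised by NRF1, a factor known for nuclear genes of mitochondria, here on the reverse strand and 16 bases before the start.
Sucla2: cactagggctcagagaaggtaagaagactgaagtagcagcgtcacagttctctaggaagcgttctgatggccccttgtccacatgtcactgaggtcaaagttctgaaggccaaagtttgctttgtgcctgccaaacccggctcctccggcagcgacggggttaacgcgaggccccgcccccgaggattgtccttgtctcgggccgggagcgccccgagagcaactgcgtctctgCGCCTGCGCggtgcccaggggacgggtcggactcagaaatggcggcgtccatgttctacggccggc
Suclg2: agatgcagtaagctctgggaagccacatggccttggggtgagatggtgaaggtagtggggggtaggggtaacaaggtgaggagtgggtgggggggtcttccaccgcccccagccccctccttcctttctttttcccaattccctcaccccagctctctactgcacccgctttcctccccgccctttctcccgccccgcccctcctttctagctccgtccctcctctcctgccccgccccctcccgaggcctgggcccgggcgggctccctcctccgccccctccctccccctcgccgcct
The Suclg2 window held none of the 3 motifs searched on both strands, which besides this core were TNAAGGTCA (the estrogen-related receptor element) and CCGGAAGTG (an ETS site used by GABPA). RefSeq windows matched 34 of the 39 members, all but Idh3a, Cpt1b, Acaa2, Decr1 and Lpl. In any window of a gene, the NRF1 core was found for 6 of the 34 members (17.6%, Dld, Ogdh, Sucla2, Acadm, Etfb and Etfdh) and for 7.03% of all 27025 genes with a window. The ETS site was found for 2 members (Dlst and Cpt2) and 2.25% of all genes, and the receptor element for 0 members and 1.43% of all genes. These matches are letters in a sequence and not binding sites.

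Among the remaining enzymes of the cycle, Fh1, Mdh1 and Mdh2 followed Cs, while Dlst fell less. Fh1 (fumarase), Mdh1 and Mdh2 (cytosolic and mitochondrial malate dehydrogenase) fell by 1.69, 2.09 and 1.85 on day 3 and rose by 1.11, 1.37 and 1.19 to day 5. Dlst, the succinyltransferase of the 2-oxoglutarate dehydrogenase complex, fell by 1.13 and was back at 92.1% of its day 0 mean on day 5.

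Entry of long-chain fatty acids into mitochondria is controlled by carnitine palmitoyltransferase 1 on the outer membrane, of which Cpt1a is the widely expressed and Cpt1b the muscle form. Cpt1a (ENSMUSG00000024900, chr19:3322334-3385733) was 2.04 and 3.94 FPKM on day 0, 2.16 and 5.66 on day 1, 10.3 and 12.8 on day 3, 4.98 and 5.90 on day 5, then 2.43 and 4.03 on day 10. Both day 3 libraries were above all others. The rise to day 3 was 1.98 (SE 0.48, adjusted p = 0.0113), and it was 1.52 (adjusted p = 0.0771) without day 0 replicate 1 and 1.82 (adjusted p = 0.0709) without day 3 replicate 2. In the same libraries the macrophage markers and 6 markers of new myofibers were also at their highest. The latter summed to 19.3 and 44.2 FPKM on day 0 and to 988 and 1515 on day 3. The part of either list in the rise was not tested.

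Cpt1b (chr15:89416405-89425863) was 1.19 and 0.755 FPKM on day 0, then 0.346 and 0.484 on day 3, and never exceeded 1.28 FPKM. These values are uncertain. In GENCODE M21, 81.4% of its exonic bases are shared with the read-through gene Gm44502 on the same strand, and reads in shared exons may have been left uncounted. Gm44502 was not among the genes deposited for muscle, so whether its model entered the counting there is not known. Its fall on day 3 (-1.04, adjusted p = 0.0236) was not called without day 0 replicate 1 (-0.75), without day 3 replicate 1 (-0.85), with the Xist term (-0.85) or with only the groups compared in the fit (adjusted p = 0.0719).

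Downstream of Cpt1, the carnitine carrier Slc25a20 and Cpt2, which rebuilds acyl-CoA in the matrix, both fell while Cpt1a rose. Cpt2 was 35.7 and 34.7 FPKM on day 0, 11.1 and 10.2 on day 3, then 18.5 and 14.7 on day 5. Slc25a20 was 18.2 and 17.97 FPKM on day 0, 7.16 and 8.01 on day 3, then 10.96 and 10.3 on day 5. The ratio of Cpt1a to Cpt2 was 0.0571 and 0.114 on day 0, then 0.927 and 1.26 on day 3. The windows of both transferases are shown for this contrast, that of Cpt1a on the plus strand at chr19:3323051-3323350 and that of Cpt2 on the minus strand at chr4:107923540-107923839, with capitals for the ETS site CCGGAAGTG 13 bases before the Cpt2 start.
Cpt1a: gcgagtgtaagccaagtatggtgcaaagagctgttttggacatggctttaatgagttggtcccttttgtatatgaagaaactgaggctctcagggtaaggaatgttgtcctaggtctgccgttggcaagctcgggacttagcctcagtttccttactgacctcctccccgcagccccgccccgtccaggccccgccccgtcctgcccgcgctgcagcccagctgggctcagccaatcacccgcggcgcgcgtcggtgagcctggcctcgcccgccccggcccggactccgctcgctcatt
Cpt2: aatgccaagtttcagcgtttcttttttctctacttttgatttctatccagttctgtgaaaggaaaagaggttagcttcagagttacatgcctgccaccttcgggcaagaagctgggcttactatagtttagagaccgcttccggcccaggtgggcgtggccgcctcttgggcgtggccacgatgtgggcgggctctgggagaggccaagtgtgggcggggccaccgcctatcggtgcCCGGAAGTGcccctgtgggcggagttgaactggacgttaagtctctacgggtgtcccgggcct
The Cpt1a window, which lies inside the gene model given above, held none of the 3 motifs.

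The acyl-CoA dehydrogenases divide the work by chain length. Acadvl, for very long chains, was 213 and 209 FPKM on day 0, 51.7 and 47.2 on day 3, then 96.1 and 102 on day 5, and its fall of 2.09 (SE 0.12, adjusted p = 0.000263) was among the largest of the fatty acid genes. Acads, for short chains, was 44.1 and 40.8 FPKM on day 0, 19.7 and 22.6 on day 3, then 40.8 and 51.7 on day 5. Its day 5 libraries enclosed those of day 0, with a difference of 0.11 against a fall in most members (95% interval -0.31 to 0.54, adjusted p = 0.678). Acadm and Acadl, for medium and long chains, fell by 1.91 and 1.20 on day 3. Of the exonic bases of Acadvl, 42.9% overlap Dvl2 on the opposite strand.

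The later steps fell as a block. Eci1, the isomerase that prepares unsaturated chains, was 117 and 102 FPKM on day 0, 27.8 and 22.8 on day 3, then 41.7 and 53.7 on day 5, a fall of 2.11 on day 3 (SE 0.22, adjusted p = 0.000447). Echs1 (enoyl-CoA hydratase) was at 38.3% of its day 0 mean on day 5, the lowest share among the oxidation enzymes, with 18.6 and 13.1 FPKM on day 0, then 6.69 and 5.47 on day 5. Decr1 (reductase for unsaturated chains), Hadh and Acaa2 (the short-chain dehydrogenase and the thiolase) fell by 1.87, 1.65 and 1.22. Etfa, Etfb and Etfdh, which pass the electrons on to ubiquinone, fell by 1.44 to 1.78, with 58.3% of the exonic bases of Etfb shared with Gm45233.

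Hadha and Hadhb encode the subunits of the mitochondrial trifunctional protein. Hadha was 63.1 and 60.0 FPKM on day 0, then 20.3 and 20.1 on day 3, and Hadhb was 58.8 and 53.0 and then 15.5 and 13.6. The ratio of Hadha to Hadhb was 1.07 and 1.13 on day 0, then 1.31 and 1.47 on day 3. The RefSeq starts used for their windows lie 273 bases apart on opposite strands, and the windows share 228 bases. The start used for Hadha lies inside its gene model, whose outer start is at chr5:30155162. The shared bases are in capitals in the Hadhb window (plus strand, chr5:30155003-30155302).
Hadhb: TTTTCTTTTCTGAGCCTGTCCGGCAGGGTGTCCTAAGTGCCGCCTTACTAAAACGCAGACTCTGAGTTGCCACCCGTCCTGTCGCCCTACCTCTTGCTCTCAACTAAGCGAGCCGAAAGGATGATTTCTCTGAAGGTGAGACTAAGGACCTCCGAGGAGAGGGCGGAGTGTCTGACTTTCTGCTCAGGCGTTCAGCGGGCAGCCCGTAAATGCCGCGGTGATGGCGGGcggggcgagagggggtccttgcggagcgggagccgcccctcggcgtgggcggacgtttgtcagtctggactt

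The genes of fatty acid supply differed among themselves in their return. Lpl, the lipase that frees fatty acids from lipoproteins (ENSMUSG00000015568, chr8:68880491-68907448), was 63.0 and 43.6 FPKM on day 0, 11.3 and 33.7 on day 1, 9.80 and 8.93 on day 3, 9.49 and 10.46 on day 5, then 26.1 and 24.6 on day 10. Both libraries of day 10 were below both of day 0, but the difference of -1.05 was not called (95% interval -2.06 to -0.03, adjusted p = 0.482). Cd36, a fatty acid translocase that endothelial cells also carry, was 68.0 and 67.5 FPKM on day 0, 29.1 and 74.4 on day 1, 22.2 and 16.1 on day 3, 27.9 and 27.1 on day 5, then 29.4 and 49.6 on day 10. Its change on day 3 was -1.83 (SE 0.43, adjusted p = 0.00945), or -1.60 and no longer called without day 3 replicate 2. Summed FPKM of 8 endothelial markers was 85.7 and 106 on day 0, then 57.6 and 44.2 on day 3, whereas the macrophage markers rose. The part of either cell type in the Cd36 values was not tested.

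Fabp3, the fatty acid binding protein of muscle cytosol with 19.6% of its exonic bases on the opposite strand of other genes, was 550 and 696 FPKM on day 0, 157 and 156 on day 3, 460 and 398 on day 5, then 504 and 577 on day 10, and it rose by 1.45 (adjusted p = 0.00691) from day 3 to day 5. Ppargc1a, a coactivator of mitochondrial genes, was 5.94 and 6.06 FPKM on day 0, 2.47 and 3.70 on day 1, 2.30 and 2.53 on day 3, 3.54 and 2.79 on day 5, then 5.65 and 5.49 on day 10. It was low on days 1, 3 and 5 alike.

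By day 5, 28 members were higher than on day 3 and 0 were lower, while 7.23% of all genes were called higher. The calls were 15 of 17 in the pyruvate dehydrogenase and TCA group, with a median of 1.19, and 12 of 18 in the fatty acid oxidation group, with a median of 0.85. The 2 TCA genes not called were Idh2 and Suclg2. The difference between the pathways was described and not tested, and the lowest and highest medians with any library left out were 1.08 and 1.31 for the first group and 0.80 and 0.92 for the second. The count of 28 was 18 without day 3 replicate 1, 0 without day 3 replicate 2, 15 without day 5 replicate 1, 0 without day 5 replicate 2 and 0 with the Xist term. Calls over all genes, 2126 with every library, were 568, 0, 258, 5 and 0 in the same settings.

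**Figure D2:**
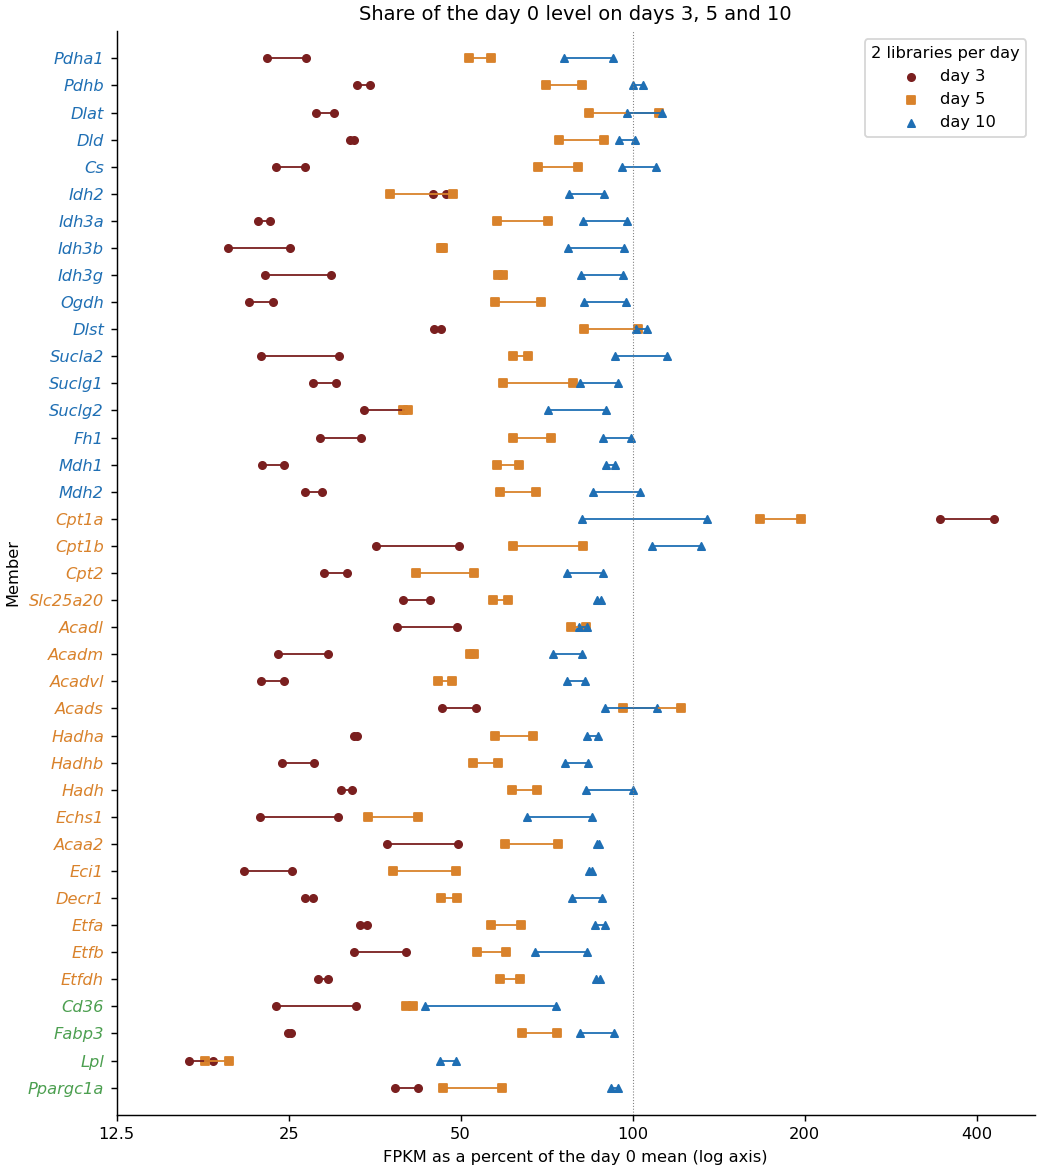
FPKM of each member on days 3, 5 and 10 as a percent of its day 0 mean, on a log axis, with 2 libraries per day joined by a line and names coloured by group (blue, pyruvate dehydrogenase and TCA cycle; orange, fatty acid oxidation; green, uptake and Ppargc1a). On day 5 Dlat, Dlst and Acads lie near 100%, and the means of 10 members lie below 50% (Idh2, Idh3b, Suclg2, Cpt2, Acadvl, Echs1, Eci1, Decr1, Cd36 and Lpl).

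Against day 0, 28 members were still lower on day 5 (12.5% of all genes), 12 of 17 in the pyruvate dehydrogenase and TCA group and 14 of 18 in fatty acid oxidation, and 2 of the other 4. The day 5 mean was 63.6% of the day 0 mean at the median of the first group, from 40.1% for Suclg2 to 97.4% for Dlat. In fatty acid oxidation the median was 59.4%, from 38.3% for Echs1 to 182% for Cpt1a. The count of 28 was 0 without day 0 replicate 1, 7 without day 5 replicate 1, 0 without day 5 replicate 2 and 0 with the Xist term, while calls over all genes went from 4267 to 24, 764, 19 and 0. The ratio of summed FPKM of the TCA group to that of the oxidation group was 2.12 and 2.07 on day 0, 1.82 and 1.55 on day 3, 2.15 and 2.24 on day 5, then 2.39 and 2.25 on day 10. It was lowest in the day 3 libraries and highest on day 10.

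By day 10 no member was called against day 0, nor were genes in general, as 1 of 16753 was called (0.00597%) and 1697 had an unadjusted p under 0.05, among them the members Hadhb, Lpl and Acadvl. The mean of 32 of 39 members was still below day 0, with a median change of -0.13 in the TCA group and -0.24 in fatty acid oxidation. Against day 3, 37 members were higher on day 10 (19.1% of all genes) and Cpt1a was lower by 1.84 (18.8% of all genes), so that Cd36 alone was not called. Cpt1a lost this call without day 3 replicate 1, day 3 replicate 2 or day 10 replicate 1 and with the Xist term, with adjusted p from 0.0661 to 0.122.

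**Figure D3:**
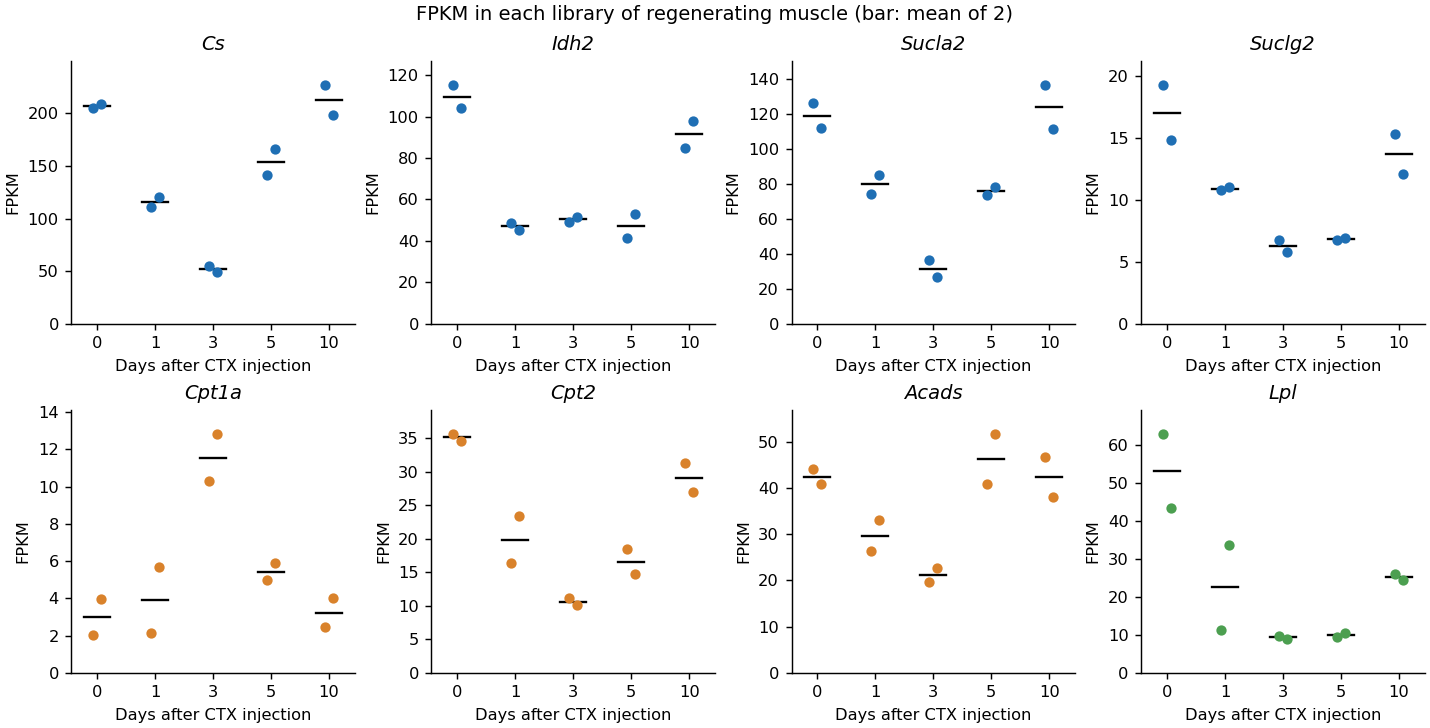
FPKM of 8 members in each library of regenerating muscle against days after CTX injection, with points for libraries and bars for the mean of 2. Cs, Sucla2, Cpt2 and Acads dip on day 3 and climb by day 5, Idh2, Suclg2 and Lpl remain low on day 5, and Cpt1a peaks on day 3 at 10.3 and 12.8 FPKM.

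Genes of the same pathways outside the 39 moved in both directions on day 3. Of 24 further genes of the TCA cycle and pyruvate entry, 16 fell and 5 rose, with a median of -1.62, of 29 tested fatty acid oxidation genes 21 fell and 4 rose, with a median of -1.24, and of 15 regulators 10 fell and 0 rose. Over all genes, 24.3% were called lower and 24.5% higher on day 3 against day 0. Among these further genes the largest changes were in Me2, Perm1 and Me3. Me2, a mitochondrial malic enzyme, was 0.948 and 1.65 FPKM on day 0, then 11.7 and 13.4 on day 3 (3.22, SE 0.32, adjusted p = 0.000395), whereas its relative Me3 was 8.72 and 6.70 and then 1.13 and 0.767 (-2.91, SE 0.33, adjusted p = 0.000544). Perm1, a muscle regulator of oxidative genes, was 119 and 95.1 FPKM on day 0, then 16.4 and 8.73 on day 3 (-3.14, SE 0.50, adjusted p = 0.00204).

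In C2C12 cells, 37 of the 39 members passed the filter of 0.5 FPKM in at least 2 libraries. Cpt1b was at most 0.0466 FPKM and Cd36 at most 0.15 FPKM in the 8 libraries, so both were untested, and with reads shared with Gm44502 the former is again uncertain. Of the members tested, 0 were called by limma in any of the 5 comparisons, also with the replicate block, a fit that pairs libraries of the same replicate number. Muscle marker levels differed widely between the same libraries. The 12 mature myofiber markers summed to 172 and 28.8 FPKM in control GM, 123 and 8.97 in knockdown GM, 742 and 742 in control DM3 and 23.9 and 19.1 in knockdown DM3. For 6 markers of new myofibers the sums were 21.3 and 5.67, 27.0 and 0.971, 350 and 308, and 9.35 and 6.69 in the same order. The paper reports that Mettl3 inhibition raised MyHC protein and, at this stage, myotube formation. By RT-qPCR at this stage it also reports higher RNA of genes tied to myoblast fusion. Both sums here were lower in knockdown than in control DM3, including that of the new myofiber list, which holds Myog, Mymk and Mymx. The reason for this opposite direction was not tested. The part of these markers in the values below was not tested.

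During differentiation of the control cells, 5 of 37 members had an unadjusted p under 0.05 (18.2% of all genes did) and 0 were called, while 1.14% of all 13824 genes were called (158 genes, or 411 with the replicate block). The median change from GM to DM3 was -0.01 in the TCA group and -0.16 in fatty acid oxidation. In the latter, 8 of 17 members were lower in both DM3 libraries than in both GM libraries and 2 were higher, where 22.4% and 24.8% of all genes were. In the TCA group 2 of 17 were lower and 4 higher in this sense, the latter being Dlat, Dld, Idh3a and Sucla2.

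Much of the spread lay in the GM controls. Etfb was 5.84 and 15.3 FPKM in control GM and 3.63 and 4.59 in control DM3, a change of -1.19 (SE 0.45, adjusted p = 0.245). Hadh was 18.02 and 28.2 FPKM in control GM and 10.9 and 11.8 in control DM3, a change of -0.98 (SE 0.26, adjusted p = 0.141). Both were lower at DM3 in both replicate numbers. Replicate 2 was the higher of its pair for 27 to 30 of 37 members in every C2C12 group. The median difference was 0.36 in control GM and 0.12 to 0.19 in the other 3 groups. In every group replicate 2 was also the library richer in ribosomal reads, most of all in control GM, and whether this bears on the members was not tested. The median of the oxidation group within replicate number 1 was -0.03 and within number 2 was -0.54. Without control GM replicate 1, 6 members were called lower (Hadh, Acadm, Etfb, Echs1, Eci1 and Acaa2) and Ppargc1a higher, a smaller share than the 26.6% of all genes called in that setting (3684 genes). Without replicate 2, 0 members and 142 genes were called.

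In the TCA group the largest changes at DM3 were those of Suclg2 and Pdha1. Suclg2 was 12.3 and 12.8 FPKM in control GM and 8.95 and 9.89 in control DM3 (-0.41, SE 0.20, adjusted p = 0.335). Pdha1 was 133 and 68.3 FPKM and then 122 and 131 (0.41, SE 0.37, adjusted p = 0.552), so the GM libraries enclosed those of DM3. Sucla2 was 17.3 and 19.5 FPKM in control GM and 22.5 and 22.5 in control DM3. The ratio of Sucla2 to Suclg2 was 1.42 and 1.52 in control GM and 2.52 and 2.28 in control DM3, whereas in knockdown cells it was 1.73 and 1.11 in GM and 1.75 and 1.89 at DM3.

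Cs was 54.4 and 44.4 FPKM in control GM, 56.7 and 63.9 in knockdown GM, 52.7 and 51.3 in control DM3 and 41.8 and 42.4 in knockdown DM3. Ppargc1a was 1.71 and 0.236 FPKM in control GM, 0.783 and 0.603 in knockdown GM, 2.88 and 2.17 in control DM3 and 2.32 and 2.29 in knockdown DM3. All DM3 libraries were above all GM libraries, with differences of 1.74 in control and 1.61 in knockdown cells that were not called in the fit of all libraries (adjusted p = 0.281 and 0.449). In knockdown cells the change was called without control GM replicate 1 (adjusted p = 0.039) or replicate 2 (adjusted p = 0.0349), which share in the estimate of the spread, and there 502 and 494 of all genes were called, against 4 with every library.

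**Figure D4:**
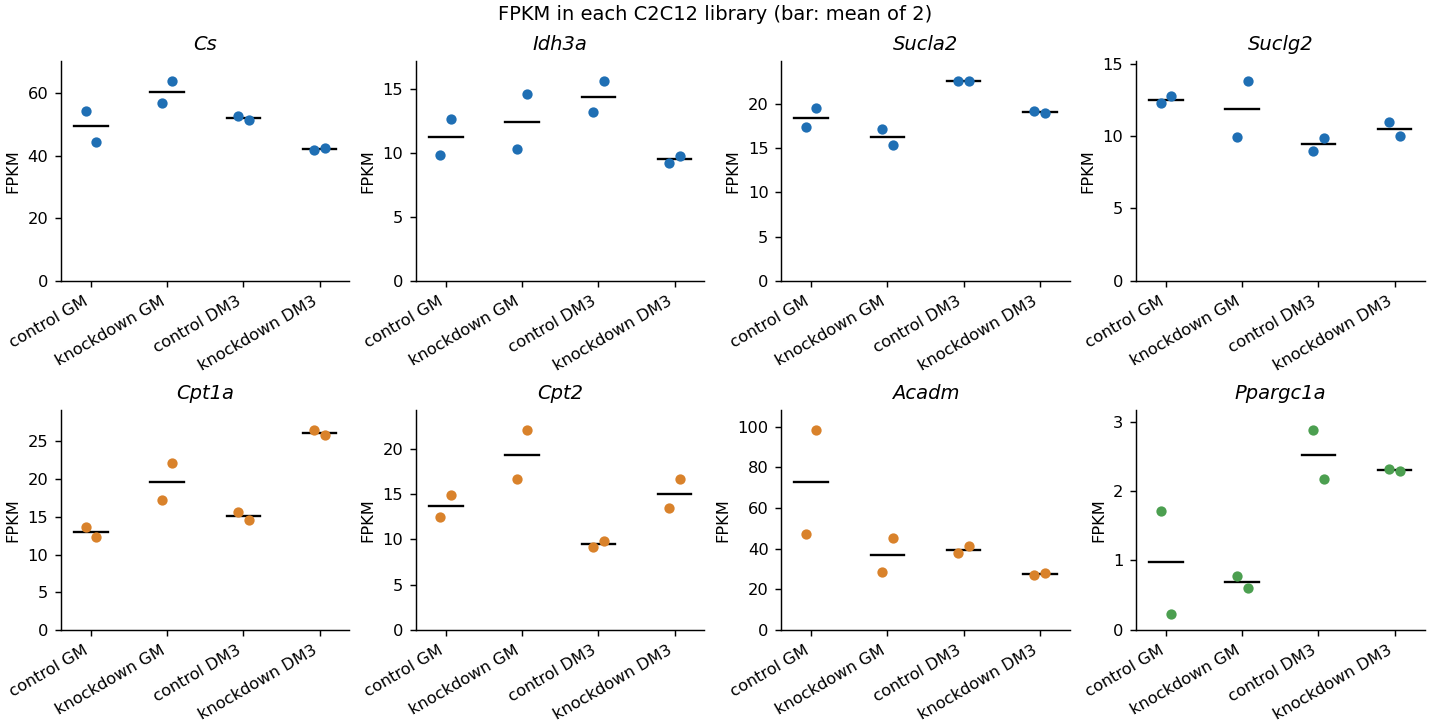
FPKM of 8 members in each C2C12 library by group, with points for libraries, replicate 1 on the left, and bars for the mean of 2. Cpt1a and Cpt2 are higher in knockdown than in control cells at both stages and Idh3a is lower in knockdown cells at DM3, none of them called. The GM control libraries differ widely for Acadm and Ppargc1a.

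Knockdown against control in GM gave 0 called members of 37 and 0 called genes of 13824 (0%), with 4 members and 1244 genes at an unadjusted p under 0.05. These 4 were Fabp3, Ogdh, Eci1 and Cpt1a. Ogdh was 30.1 and 25.7 FPKM in control and 45.9 and 49.3 in knockdown cells (0.77, SE 0.18, 95% interval 0.34 to 1.20, adjusted p = 0.335). Fabp3 was low throughout, at 0.803 and 1.13 FPKM in control and 2.50 and 2.65 in knockdown GM.

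At DM3, knockdown cells had lower levels of most TCA genes and no common direction in fatty acid oxidation, but 0 of 37 members were called where 1.98% of all genes were (274 genes, or 505 with the replicate block). Of the 17 TCA group members, 13 were lower in both knockdown libraries than in both control libraries, and 2 (Dlat and Suclg2) were higher. Over all genes 34.2% were lower and 29.3% higher in this sense. Of the 17 oxidation members tested, 5 were lower (Acadl, Acadm, Hadha, Hadhb and Etfdh) and 7 higher (Cpt1a, Cpt2, Slc25a20, Acads, Echs1, Acaa2 and Decr1). The median difference was -0.30 in the TCA group and 0.10 in fatty acid oxidation, against -0.05 over all genes. Within replicate number 1 these medians were -0.31 and 0.08, and within number 2 they were -0.30 and 0.12.

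All 3 measurable members of the carnitine shuttle had higher values in both knockdown libraries at DM3, and none was called. Cpt1a was 15.7 and 14.5 FPKM in control and 26.5 and 25.8 in knockdown DM3, a difference of 0.79 (SE 0.18, 95% interval 0.35 to 1.23) that had the lowest adjusted p of the members, 0.0902. In GM it was 13.6 and 12.3 FPKM in control and 17.2 and 22.1 in knockdown cells (0.59, adjusted p = 0.462). Cpt2 was 9.14 and 9.77 FPKM in control and 13.4 and 16.7 in knockdown DM3 (0.66, 95% interval 0.14 to 1.18, adjusted p = 0.183). Knockdown libraries did not overlap control libraries for either transferase at either stage. At DM3 29.3% of all genes were higher in this sense, and the share in GM was not counted, so this sets neither gene apart.

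Among the TCA genes, Idh3a was 13.2 and 15.6 FPKM in control and 9.23 and 9.74 in knockdown DM3, a difference of -0.59 (SE 0.24, 95% interval -1.16 to -0.02, adjusted p = 0.269). Fh1 (-0.53), Mdh2 (-0.51), Pdhb (-0.42) and Dld (-0.41) had the next lowest values. When only the DM3 groups entered the fit, 7 members were called, namely Acadl, Fh1, Etfdh, Acadm and Idh3a as lower and Cpt2 and Cpt1a as higher. In that fit 19.1% of all genes were called (2637 genes), about the share of the members. The nuclear oxidative phosphorylation genes had a median of -0.32, with 0 of 20 called in the fit of all libraries.

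**Figure D5:**
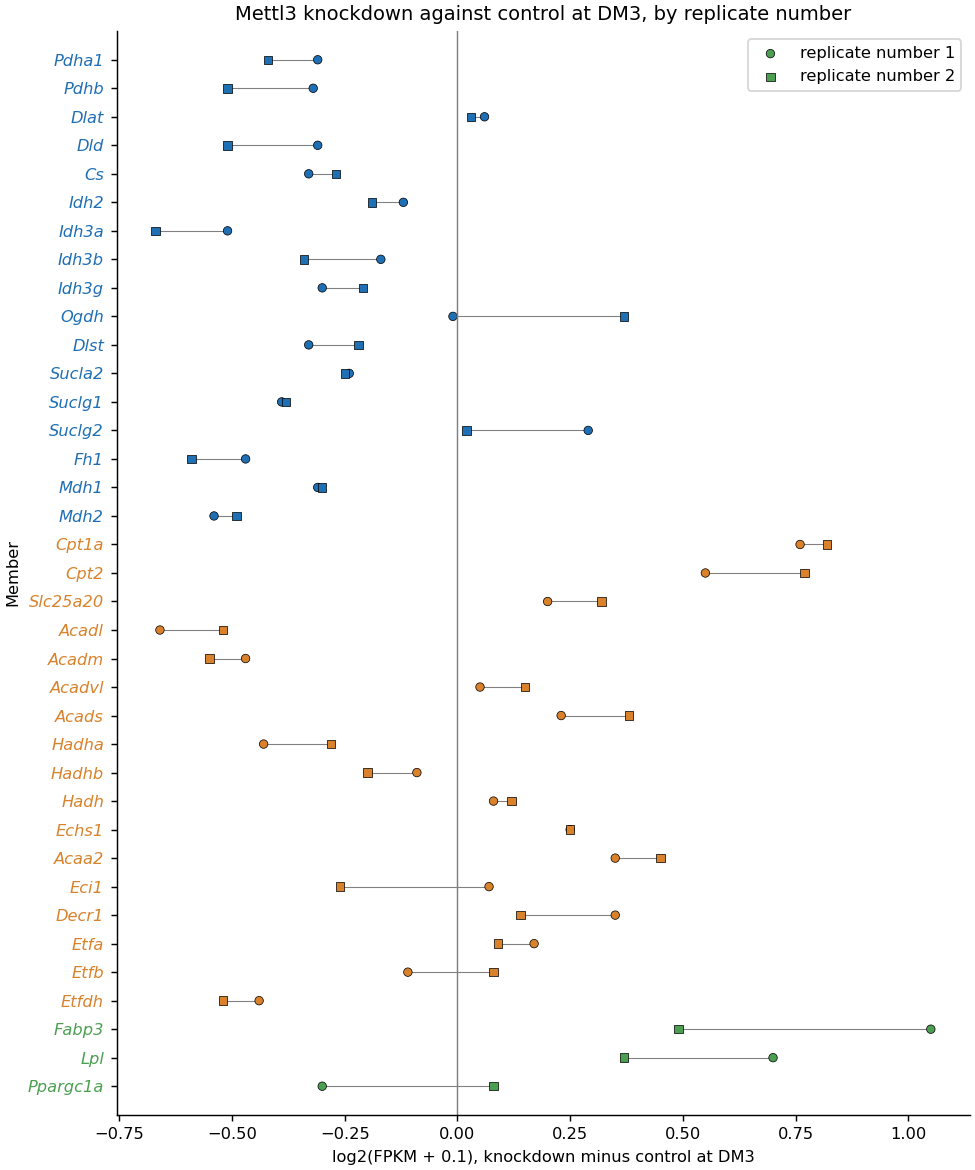
Difference between knockdown and control cells at DM3 in log2(FPKM + 0.1) for the 37 members tested, taken within replicate number 1 (circles) and within number 2 (squares), with genes coloured by group (blue, TCA; orange, fatty acid oxidation; green, uptake and Ppargc1a). Most blue points lie below 0, with medians of -0.31 and -0.30, and orange points lie on both sides.

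From GM to DM3 the knockdown cells gave 0 called members (0.0289% of all genes were called), with 6 members at an unadjusted p under 0.05. The medians were -0.16 in the TCA group and -0.02 in fatty acid oxidation. Mature myofiber markers of these cells summed to 123 and 8.97 FPKM in GM and 23.9 and 19.1 at DM3. The GM libraries thus lay on either side of those at DM3. DM3 is used here as a name for the medium, and the state of differentiation of these cells was not tested. Whether the knockdown effect differed between DM3 and GM was tested in the same fit, where 0 of 37 members and 0 of 13824 genes (0%) were called and 0 members had an unadjusted p under 0.05, compared with 1198 genes. The difference of effects was -0.60 for Cs and -0.73 for Idh3a, with SE of 0.25 and 0.33. Lpl was 34.6 and 35.6 FPKM in control and 56.5 and 46.1 in knockdown DM3, and 39.04 and 26.4 and then 37.7 and 27.4 in GM, a difference of effects of 0.54 (SE 0.37, adjusted p = 0.728).

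Outside the 39, 1 of the 62 further pathway genes and regulators tested was called in any comparison of the knockdown table. It was Echdc2, an enoyl-CoA hydratase family member, with 9.15 and 6.97 FPKM in control GM and 2.61 and 2.65 in control DM3 (-1.56, SE 0.20, adjusted p = 0.0317). In that comparison 1.14% of all genes were called.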

How the data were processed

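RNA sequencing libraries of injured mouse muscle (10) and of C2C12 cells (8) were used, grouped by their labels, and the Mettl3 overexpression samples were not analysed here. According to the study's methods, reads were mapped to GRCm38 by HISAT2 and assigned to Ensembl genes by featureCounts, and the authors deposited FPKM values from the fpkm function of DESeq2. Versions are not given in the sources used here. Both tables were scaled on their own, and no level was set across them.

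Depth was recovered from the FPKM step of 1 read, with at least 96.97% and 98.68% of low values whole multiples within 0.05. For a transcript 1 kb long, 1 read equalled at most 0.0817 FPKM in muscle and 0.104 FPKM in C2C12 cells, which limits low values. No count test was run.

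A gene was tested if 2 or more libraries reached 0.5 FPKM (16753 genes in muscle, 13824 in C2C12 cells). Values of log2(FPKM + 0.1) from every group of a table entered 1 limma fit (3.58.1, trended variance, R 4.3.3), and p-values were adjusted by Benjamini-Hochberg over all genes of that table. An exact permutation test of 2 against 2 libraries cannot go below 0.333 and was not used. The fit was also run on simulated data with independent noise. These data held neither the pairing by replicate number nor the sex-linked split, so that run does not bear on their effect on the calls. Gene models came from GENCODE M21 (53274 and 55141 IDs matched). Python 3.11.15, pandas 2.3.3, numpy 2.4.6 and matplotlib 3.10.9 were used.

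The members, gene lists and tests were chosen with earlier results of these data known. By rule, values per library were given for the 2 members of each pathway with the largest change on day 3 and at control DM3, for Cpt1a, Cpt1b, Cs, the succinyl-CoA ligase genes, Cd36, Fabp3, Lpl and Ppargc1a, and for members opposite to their pathway. Those of Dlat, Idh2, Idh3a, Cpt2, Slc25a20, Echs1, Hadha and Hadhb, of Pdha1 in muscle and of Ogdh in C2C12 cells were added once values were known. Same-numbered libraries deviated together in all 6 pairs of C2C12 groups (correlations 0.278 to 0.68), so these numbers were taken as pairs, from the data and not from the labels. Alternatives changed the pseudocount (1 or 0.01), the filter (none or 1 FPKM), the scaling, the groups fitted, the fold change, an Xist term, the replicate block and each library left out. The scalings were by median ratio and by quantile normalization, and neither was to total reads. Median-ratio scaling gave 8172 called genes for day 3 against day 0, against 8179 with the deposited values, so it hardly changed the scaling.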

Additional observations from a re-analysis of the deposited data

How the results depend on the processing

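Tables of 2 libraries per group limit the reach of every test, and only 1 day held libraries with and without Xist. Of the counts of members called, the day 1 fall from day 0 (27) depended most on the setting. It was 7 with a log2 fold change of at least 1, 17 with no filter, 7 after quantile normalization and 0 when only the groups compared were fitted or an Xist term was added. The day 5 count against day 0 (28) was 9 with the larger fold change, 12 after quantile normalization, 15 with only the groups compared and 0 with the Xist term. The count of day 3 against day 1 (31) was 14, 20 and 16 with the larger fold change, only the groups compared and the Xist term, and that of day 5 against day 3 (28) was 0 with the Xist term. Knockdown at DM3 gave 7 rather than 0 with only the groups compared, where 19.1% of all genes were called. With the Xist term 0 of all genes were called for day 1 or day 5 against day 0 or day 5 against day 3. The causes were not tested. Day 3 against day 0 gave 38 or 39 in all these settings.

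Quantile normalization moved the medians of the TCA and oxidation groups to -0.60 and -0.72 for day 1, to -1.46 and -1.42 for day 3 and to -0.27 and -0.56 for day 5, each against day 0, to -0.83 and -0.59 for day 3 against day 1, to 1.35 and 1.26 for day 10 against day 3, and to 0.12 in the TCA group for control DM3 against GM.

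With any library left out, the counts ranged from 0 to 26 for day 1 and 0 to 29 for day 5 against day 0, 16 to 31 for day 3 against day 1, 0 to 29 for day 5 against day 3, 0 to 7 for control DM3 against GM (the 7 without control GM replicate 1, where 26.6% of all genes were called) and 0 to 1 for knockdown DM3 against GM. The lowest and highest TCA and oxidation medians were -0.90 and -0.63, and -0.99 and -0.73, for day 1 against day 0, -1.95 and -1.74 (TCA) for day 3 against day 0 and -0.77 and -0.53 (TCA) for day 5 against day 0. They were -1.17 and -0.89, and -0.87 and -0.54, for day 3 against day 1, -0.27 and 0.01, and -0.39 and 0.00, for knockdown in GM, -0.19 and 0.05, and -0.57 and 0.00, for control DM3 against GM, -0.36 and -0.14 (TCA) for knockdown DM3 against GM, and -0.40 and 0.02, and -0.01 and 0.60, for the difference of knockdown effects.

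Within replicate number 2 the oxidation median for control DM3 against GM was -0.54. In muscle the numbers did not pair the libraries (correlations of -0.0187 to 0.211), and with the replicate block 21, 39, 27, 0, 32, 31 and 38 members were called in the 7 comparisons of days. In C2C12 cells 0 members were called with the block in any comparison. Medians with the block and within numbers were chosen after seeing the data. No called member changed sign in any setting.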
